A study of Caenorhabditis elegans with 18 samples.

Results

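Fatty acids are released from stored lipid by lipases, joined to coenzyme A by acyl-CoA synthetases, and then shortened by beta-oxidation in mitochondria or peroxisomes. In mitochondria the first oxidation step is made by acyl-CoA dehydrogenases, and in peroxisomes by acyl-CoA oxidases. Enoyl-CoA hydratases make the next step in both. In Caenorhabditis elegans this machinery is best known from the intestine, the worm's fat store, where fasting raises lysosomal lipases and mitochondrial oxidation genes, and from the peroxisomal route that trims the side chains of ascaroside pheromones. The genes described here are those named acs, acdh, acox, ech or lipl plus a number in the RefSeq annotation of WBcel235. For each gene the transcript with the highest mean stood for it, and the gene was kept at a mean of at least 10 counts per library. Of 61 annotated genes in the 5 families, 56 had a row in the table and 54 were kept, among 39798 genes with a row. The kept genes were 21 acyl-CoA synthetases (acs), 11 acyl-CoA dehydrogenases (acdh), 7 acyl-CoA oxidases (acox), 8 enoyl-CoA hydratase family genes (ech) and 7 lipases (lipl). The genes acdh-1, acdh-3, acs-23, ech-4 and ech-6 were not analysed here. Below the minimum fell acs-25 at a mean of 9.5 counts and lipl-8 at 0.08. Just above it lay acs-24 at 10.17, lipl-1 at 11.0, lipl-2 at 13.42 and lipl-3 at 14.08.

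RNA of whole day-1 adult worms was sequenced in 3 strains: N2 Bristol, the wild type, RB711, which carries the pqm-1 null allele ok485, and CF1038, which carries the daf-16 allele mu86. Both mutated genes encode transcription factors of stress and longevity pathways. Each strain was sampled at 20 °C and after 1 h at 35 °C followed by 2 h at 20 °C, so the heated groups were collected during recovery. Each mutation was represented by 1 strain, and all groups came from synchronised larvae grown on OP50-1 bacteria. The labels give 3 biological replicates for each of the 6 groups, but 1 sample column holds transcript lengths, so the header may be displaced by 1 column. Only the 12 libraries named replicate 2 and 3, 2 per group, belong to their group under either reading, and they are the ones compared. Their totals over genes were 18650462 to 33399558 estimated counts. The gene pqm-1 was at 26.1 and 24.1 CPM (counts per library, scaled to a common total) in N2 at 20 °C and 12.6 and 9.92 in the pqm-1 mutant, so transcripts of the locus were still counted there. The transcript of daf-16 was at 106 and 88.04 CPM in N2 and 115 and 97.7 CPM in the daf-16 mutant at 20 °C, so its level does not mark the mutant. The heat shock gene hsp-16.2 was at most 0.425 CPM in the 20 °C libraries and at least 257 CPM after heat.

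Levels set per kilobase of coding length (CPM per kb, mean of 12 libraries) put the lysosomal lipase lipl-5 first at 176, ahead of the long-chain synthetase acs-4 at 152 and of ech-1.2, a homologue of the trifunctional protein alpha subunit, at 150.1. The leading dehydrogenase was acdh-10, related to medium-chain acyl-CoA dehydrogenases, at 108, and the leading oxidase was acox-1.1 at 40.3. The lipase family was therefore represented mostly by 1 gene, since lipl-1, lipl-2, lipl-3 and lipl-4 had no more than 54 counts in any library. The 54 genes together summed to 3914 and 3923 CPM in the N2 libraries at 20 °C and to 3113 and 3449 after heat. The sums were 3981 and 4110.0 and then 3210.0 and 3324 in the pqm-1 mutant, and 4088 and 4152 and then 3064 and 3342 in the daf-16 mutant. In each strain both heated libraries had a lower sum than both 20 °C libraries.

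After heat, genes of fatty acid activation and oxidation changed in both directions. The peroxisomal synthetase acs-7 and the oxidase acox-3 rose in every strain, while the mitochondrial synthetase acs-2, the dehydrogenase acdh-2, the branched-chain synthetase acs-1 and the lipase lipl-5 fell in every strain. A call required an adjusted p under 0.05 (Benjamini-Hochberg, over the 14278 genes tested) in the quasi-likelihood test of edgeR. In N2, 27 of the 54 were called, 12 higher and 15 lower, where 34.7% of all tested genes were called, 16.8% higher and 17.9% lower. In the pqm-1 mutant 25 were called, 6 higher and 19 lower, against a background of 25.2%, with 12.5% higher and 12.6% lower. In the daf-16 mutant 28 were called, 4 higher and 24 lower, against 33.1%, with 16.5% in each direction. The lower calls thus made up 27.8%, 35.2% and 44.4% of the 54 in N2, the pqm-1 and the daf-16 mutant. The higher calls made up 22.2%, 11.1% and 7.41%. The median log2 fold change of the 54 genes was -0.02 in N2, -0.19 in the pqm-1 mutant and -0.32 in the daf-16 mutant, beside 0.02, 0.01 and 0.03 for all tested genes. Without the heated N2 replicate 2 the N2 median was 0.07, without its replicate 3 it was -0.10, and without replicate 2 or 3 of N2 at 20 °C it was -0.07 or -0.04. With library size scaling it was 0.06, beside 0.10 for all tested genes, so its sign is not settled. With all 17 count columns assigned by their header names, 0 of the 54 were called in each strain, as were 0 of all 14462 genes then tested. If the header is displaced, columns named replicate 1 stand in the wrong groups in that fit. It would then say nothing about the heat calls. The pqm-1 count was 16 without replicate 3 of that mutant at 20 °C and 16 without replicate 3 of its heated group. The calls over all genes fell in the same fits, from 3591 of 14278 to 2024 of 14603 and 2211 of 14599. In all 3 strains 4 genes rose and 13 fell, together 31.5% of the 54, where 16.6% of all tested genes were called in 1 direction in all 3 strains.

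**Figure D1:**
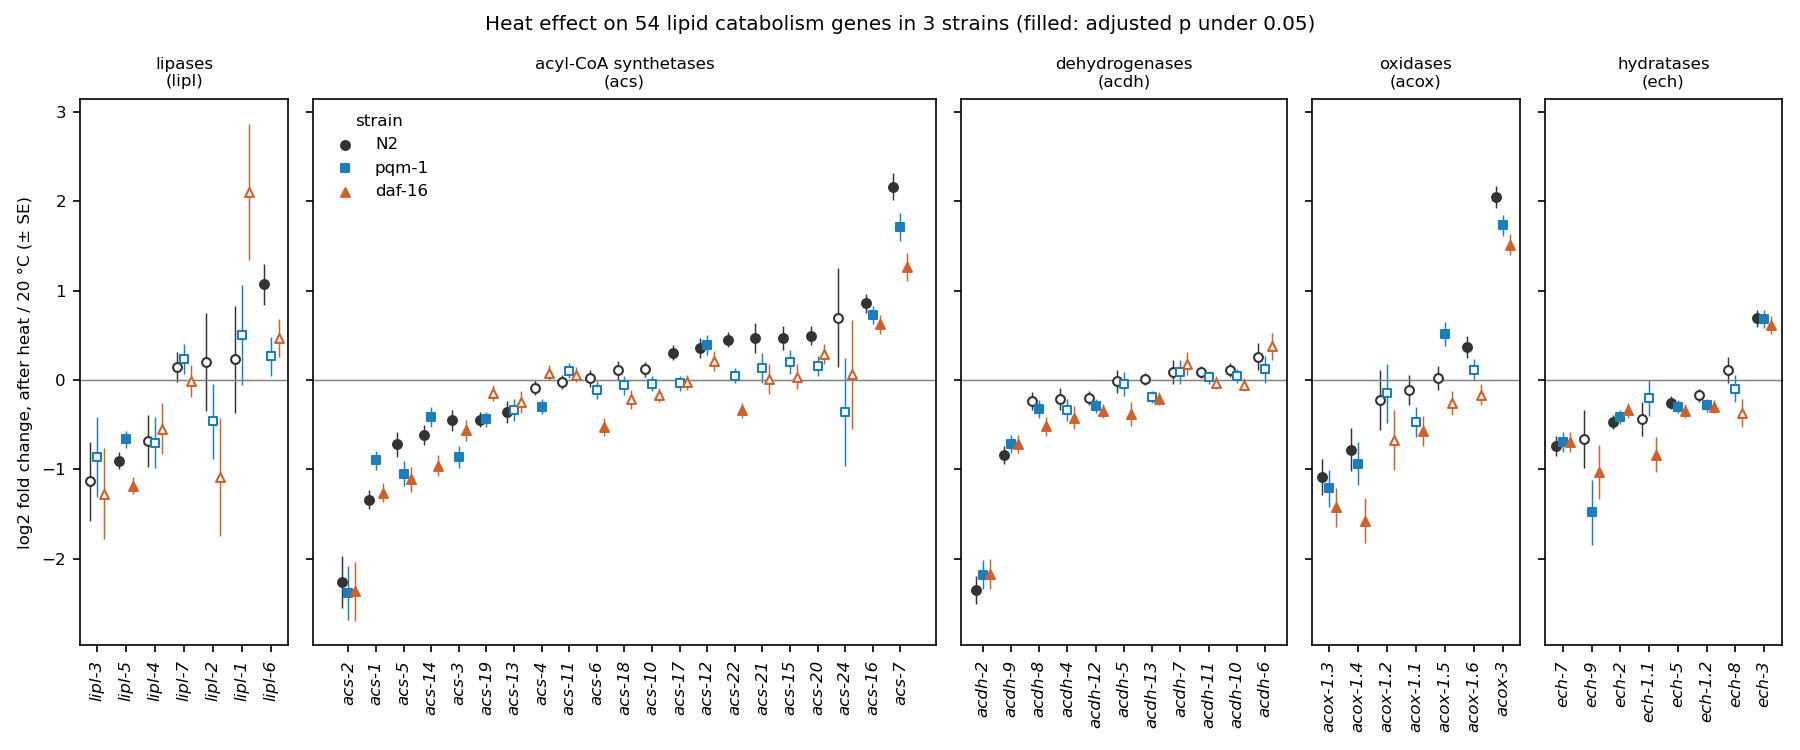
Log2 fold change after heat against 20 °C (vertical axis, bars ± SE from the edgeR fit) of the 54 genes by family, ordered by the value in N2, in N2 (circles), the pqm-1 mutant (squares) and the daf-16 mutant (triangles). Filled points passed an adjusted p of 0.05, and acs-7, acox-3, acs-16 and ech-3 are filled above 0 in all 3 strains.

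Markers of tissues moved with heat too. Their counts stand beside the shares of all tested genes. Those were 16.8% higher and 17.9% lower in N2, 12.5% and 12.6% in the pqm-1 mutant and 16.5% each way in the daf-16 mutant. Of 8 intestine markers, none rose and 4 fell in N2, 3 in the pqm-1 mutant and 5 in the daf-16 mutant. Their summed level went from 5497 and 5856 to 3702 and 4624 CPM in N2, from 5979 and 6068 to 4353 and 4655 in the pqm-1 mutant and from 6342 and 6568 to 4490.0 and 4570.0 in the daf-16 mutant. Of 8 oocyte and eggshell markers, 7, 4 and 1 fell, with sums from 3001 and 3495 to 1711 and 1862 CPM in N2, 2611 and 2639 to 1795 and 2017 in the pqm-1 mutant and 2024 and 2470.0 to 1604 and 2301 in the daf-16 mutant. The intestine sums did not overlap between temperatures in any strain, whereas the oocyte and eggshell sums overlapped in the daf-16 mutant. Of 3 body wall muscle markers tested, 2 rose in N2, none in the pqm-1 mutant and 2 in the daf-16 mutant, and their sums at 20 °C and after heat were 5066 and 6327 and then 7429 and 7879 CPM, 6440.0 and 6922 and then 7068 and 7674, and 5508 and 6849 and then 7583 and 8029 in these strains. The muscle sums were higher in both heated libraries of every strain. Of 4 hypodermis markers, 1 rose and 1 fell in N2 and 2 rose in the daf-16 mutant, with sums of 2215 and 2294 and then 1560.0 and 1718 CPM in N2, 1789 and 1815 and then 1394 and 1569 in the pqm-1 mutant, and 1626 and 2195 and then 1583 and 1590.0 in the daf-16 mutant. Of 5 sperm markers tested, 1 rose and 2 fell in N2, 2 fell in the pqm-1 mutant and 3 in the daf-16 mutant, with sums of 427 and 442 and then 353 and 371 CPM, 433 and 446 and then 322 and 333, and 468 and 484 and then 303 and 347 in that order of strains. No marker had a mean under 1 CPM. Single genes made up much of some sums. In N2 at 20 °C, asp-1 averaged 3244 of the 5677 CPM for intestine. There unc-54 averaged 4411 of 5697 for muscle and col-19 averaged 2097 of 2254 for hypodermis. The sums therefore need not show how the other markers moved. With heat in N2, 3 of the 8 intestine markers had a log2 fold change above 0 and 5 below. The part of these markers in the heat results of the 54 genes was not tested. In whole worms, fewer cells of a type and less RNA per cell cannot be told apart.

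The lysosomal lipase lipl-5, which is induced by fasting, was at 258 and 286 CPM at 20 °C and 134 and 156 after heat in N2, 256 and 286 at 20 °C and 168 and 175 after heat in the pqm-1 mutant and 287 and 299.6 at 20 °C and 125 and 134 after heat in the daf-16 mutant. Every heated library lay below every 20 °C library of its strain. The log2 fold changes were -0.90 ± 0.09 in N2, -0.66 ± 0.09 in the pqm-1 mutant and -1.18 ± 0.10 in the daf-16 mutant (adjusted p = 3.62e-05, 0.000333 and 5e-06). The lipase-family gene lipl-6 was at 3.24 and 3.88 CPM at 20 °C and 7.22 and 7.78 after heat in N2, 6.21 and 5.80 at 20 °C and 7.90 and 6.50 after heat in the pqm-1 mutant and 8.89 and 5.07 at 20 °C and 10.3 and 9.12 after heat in the daf-16 mutant. It rose in N2 by 1.07 ± 0.23 on the log2 scale (adjusted p = 0.00345). In the mutants its heat changes of 0.27 ± 0.22 and 0.47 ± 0.21 did not pass the test, and the daf-16 libraries at 20 °C were far apart. The fasting-induced lysosomal lipases lipl-1, lipl-2 and lipl-3 and lipl-4, known from the long life of worms without a germline, were too low to read closely. For lipl-4 the counts were 36 and 35 at 20 °C and 20 and 39 after heat in N2, 54 and 33 and then 30 and 25 in the pqm-1 mutant, and 47 and 38 and then 27 and 29 in the daf-16 mutant. The counts of lipl-1 were 2 and 4 at 20 °C and 4 and 22 after heat in the daf-16 mutant (adjusted p = 0.0521), so 1 heated library stood apart. None of these 4 was called in any strain. At such counts a change of moderate size was not detectable. The family member lipl-7, at 130 to 288 counts per library, was also called in no strain.

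Among the synthetases, acs-7, the peroxisomal enzyme that activates ascaroside side chains, had the largest rise in N2 among all 54 genes. Its levels were 9.27 and 10.1 CPM at 20 °C and 41.6 and 45.2 after heat in N2, 11.3 and 9.92 at 20 °C and 34.1 and 35.3 after heat in the pqm-1 mutant and 11.96 and 11.6 at 20 °C and 22.8 and 33.9 after heat in the daf-16 mutant. The heated libraries were all above the 20 °C libraries, the N2 pair highest and the daf-16 pair widest apart. Its rise on the log2 scale was 2.17 ± 0.16 in N2, 1.71 ± 0.16 in the pqm-1 mutant and 1.27 ± 0.16 in the daf-16 mutant (adjusted p = 2.66e-06, 1.61e-05 and 8.14e-05). The synthetase acs-16 also rose in all 3 strains, by 0.86 ± 0.11, 0.73 ± 0.10 and 0.62 ± 0.11 on the log2 scale. Its CPM went from 11.7 and 12.2 to 23.1 and 20.5 in N2, and the other strains lay close to these.

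The largest fall among the synthetases belonged to acs-2, the mitochondrial long-chain synthetase that the nuclear receptor NHR-49 raises in fasting. Its levels were 32.9 and 33.97 CPM at 20 °C and 4.21 and 9.36 after heat in N2, 35.2 and 42.6 at 20 °C and 7.52 and 7.34 after heat in the pqm-1 mutant and 22.5 and 25.4 at 20 °C and 6.58 and 2.94 after heat in the daf-16 mutant. The heated pairs of N2 and the daf-16 mutant each differed by more than 2-fold between their 2 libraries, yet no heated library reached a 20 °C library. Its change on the log2 scale was -2.26 ± 0.30 in N2, -2.39 ± 0.30 in the pqm-1 mutant and -2.36 ± 0.33 in the daf-16 mutant (adjusted p = 0.000167, 0.000153 and 0.000207). The gene acs-1, needed for monomethyl branched-chain fatty acids, was among the most abundant synthetases at 243 and 262 CPM at 20 °C and 88.3 and 111 after heat in N2, 258 and 249 at 20 °C and 141 and 132 after heat in the pqm-1 mutant and 246 and 264 at 20 °C and 103 and 110.2 after heat in the daf-16 mutant. It fell in each, with changes of -1.34 ± 0.10 in N2, -0.90 ± 0.10 in the pqm-1 mutant and -1.26 ± 0.10 in the daf-16 mutant on the log2 scale. Its heated pqm-1 libraries were the highest of the heated ones.

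Also lower in every strain were acs-5, acs-14 and acs-3. The log2 fold changes of acs-5 were -0.72 ± 0.14 in N2, -1.05 ± 0.14 in the pqm-1 mutant and -1.11 ± 0.14 in the daf-16 mutant. Those of acs-14 were -0.61 ± 0.11 in N2, -0.42 ± 0.11 in the pqm-1 mutant and -0.96 ± 0.12 in the daf-16 mutant. The pqm-1 call of acs-14 was lost without any single library of that mutant, at values from -0.38 to -0.45. The falls of acs-5 and acs-14 were smaller than that of acs-2. The synthetase acs-3, known to act with the nuclear receptor NHR-25, changed by -0.45 ± 0.12 in N2, -0.86 ± 0.12 in the pqm-1 mutant and -0.57 ± 0.12 in the daf-16 mutant. The highly expressed acs-4 kept to 285 to 372 CPM over the 12 libraries and was called in the pqm-1 mutant, at -0.30 ± 0.09 (adjusted p = 0.0232). The acetyl-CoA synthetase acs-19 fell in N2 and the pqm-1 mutant, at -0.44 ± 0.09 and -0.44 ± 0.09, and its change in the daf-16 mutant was -0.14 ± 0.09, which did not pass.

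The fatty acid transport protein homologues acs-20 and acs-22 act in the barrier of the worm's surface. Levels of acs-22 were 59.3 and 62.6 CPM at 20 °C and 79.9 and 86.6 after heat in N2, 66.04 and 71.8 at 20 °C and 74.9 and 67.5 after heat in the pqm-1 mutant and 81.8 and 82.8 at 20 °C and 62.5 and 67.4 after heat in the daf-16 mutant. The heated N2 libraries were above both 20 °C libraries, the heated daf-16 libraries were below theirs, and the pqm-1 groups came close to each other. The gene rose by 0.45 ± 0.08 in N2 (adjusted p = 0.00167) and fell in the daf-16 mutant, at -0.34 ± 0.08 (adjusted p = 0.00843), the only one of the 54 called in opposite directions. Without the heated daf-16 replicate 2 the latter value was -0.29 (adjusted p = 0.0623) and was no longer called. In the pqm-1 mutant its change was 0.05 ± 0.08. The annotation has dylt-2 overlapping acs-22, which makes these counts uncertain. Levels of acs-20 were 48.3 and 51.99 CPM at 20 °C and 75.8 and 65.9 after heat in N2, 63.1 and 61.4 at 20 °C and 65.8 and 73.2 after heat in the pqm-1 mutant and 73.03 and 61.7 at 20 °C and 88.5 and 76.3 after heat in the daf-16 mutant, and it rose in N2 by 0.50 ± 0.11 (adjusted p = 0.00442). Its changes of 0.16 ± 0.11 and 0.29 ± 0.11 in the pqm-1 and daf-16 mutants did not pass. Over the 21 synthetases, 8 rose and 7 fell in N2, 3 rose and 7 fell in the pqm-1 mutant, and 2 rose and 7 fell in the daf-16 mutant. The rises were 38.1%, 14.3% and 9.52% of the family, where 16.8%, 12.5% and 16.5% of all tested genes were called higher. The falls were 33.3% in each strain, where 17.9%, 12.6% and 16.5% of all tested genes were called lower.

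**Figure D2:**
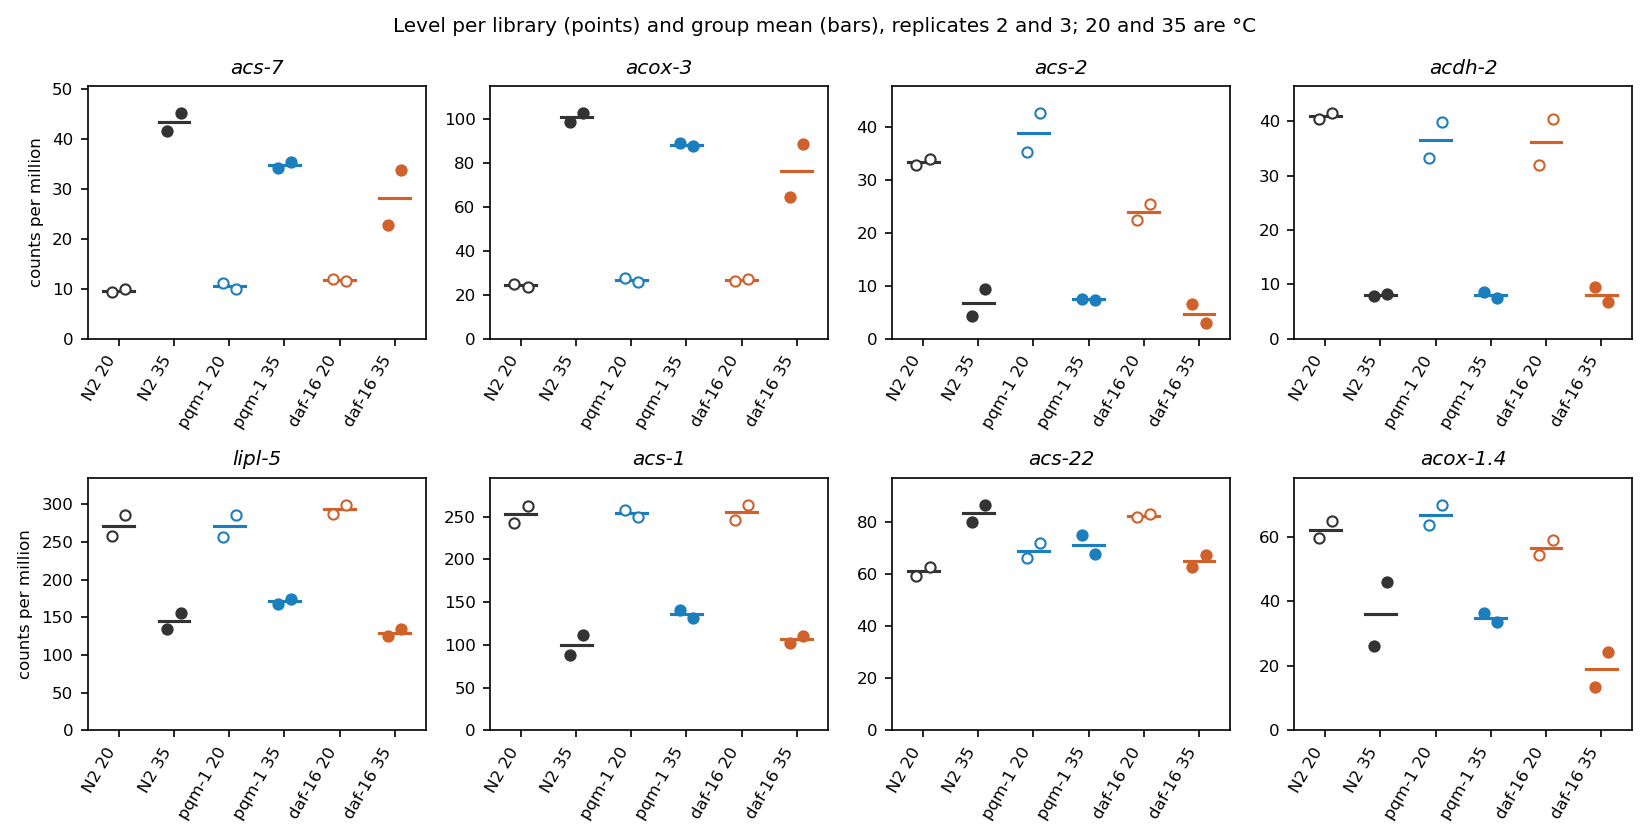
CPM (vertical axis, from 0) of 8 genes in each of the 12 libraries, with open points for 20 °C, filled points for 35 °C and recovery, and bars for group means (n = 2). The heated libraries of acs-7 and acox-3 are all above the 20 °C ones, those of acs-2, acdh-2, lipl-5, acs-1 and acox-1.4 all below, and acs-22 differs in direction between N2 and the daf-16 mutant.

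Of the mitochondrial acyl-CoA dehydrogenases, none rose in any strain. In N2 2 of 11 fell, in the pqm-1 mutant 4 and in the daf-16 mutant 7. These were 18.2%, 36.4% and 63.6% of the family, where 17.9%, 12.6% and 16.5% of all tested genes were called lower. The N2 share was thus near that of all genes. Called higher were 16.8%, 12.5% and 16.5% of all tested genes. The steepest fall was that of acdh-2, at 40.3 and 41.5 CPM at 20 °C and 7.80 and 8.22 after heat in N2, 33.2 and 39.9 at 20 °C and 8.54 and 7.54 after heat in the pqm-1 mutant and 31.95 and 40.4 at 20 °C and 9.49 and 6.68 after heat in the daf-16 mutant. Every heated library was far below the lowest 20 °C library. The log2 fold changes were -2.35 ± 0.16 in N2, -2.18 ± 0.16 in the pqm-1 mutant and -2.17 ± 0.16 in the daf-16 mutant (adjusted p = 1.55e-06, 3.44e-06 and 3.27e-06). The more abundant acdh-9 was at 139 and 139.7 CPM at 20 °C and 70.7 and 84.7 CPM after heat in N2. It fell in all 3 strains, with log2 fold changes of -0.84 ± 0.10 in N2, -0.72 ± 0.10 in the pqm-1 mutant and -0.72 ± 0.10 in the daf-16 mutant. Of acdh-12, related to very-long-chain acyl-CoA dehydrogenases, the log2 fold changes were -0.21 ± 0.08 in N2, -0.29 ± 0.08 in the pqm-1 mutant and -0.35 ± 0.08 in the daf-16 mutant, and those in the mutants passed the test. The pqm-1 call of acdh-12 was lost without replicate 3 of that mutant at 20 °C, at -0.245. It was also lost without its heated replicate 2 or 3, at -0.33 or -0.26.

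In contrast, acdh-11, known for limiting the desaturase gene fat-7 during adaptation to warmth, stayed at 68.2 to 76.1 CPM over all 12 libraries. Its heat changes were 0.09 ± 0.07 in N2, 0.03 ± 0.07 in the pqm-1 mutant and -0.03 ± 0.07 in the daf-16 mutant, none of them called, with 95% intervals of -0.06 to 0.24, -0.12 to 0.18 and -0.18 to 0.12. Levels of acdh-10 were likewise at 125 to 149 CPM, with no call in any strain.

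Among the peroxisomal acyl-CoA oxidases, acox-3 and the genes acox-1.3 and acox-1.4 changed in opposite directions. Levels of acox-3 were 25.1 and 23.8 CPM at 20 °C and 99.1 and 103 after heat in N2, 27.5 and 25.9 at 20 °C and 89.1 and 87.9 after heat in the pqm-1 mutant and 26.3 and 27.4 at 20 °C and 64.6 and 88.7 after heat in the daf-16 mutant. Every heated library exceeded every 20 °C library by more than 2-fold, and the 2 heated daf-16 libraries were the furthest apart. The rise on the log2 scale was 2.05 ± 0.12 in N2, 1.73 ± 0.12 in the pqm-1 mutant and 1.52 ± 0.12 in the daf-16 mutant (adjusted p = 7.05e-07, 2.51e-06 and 5e-06).

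Of the oxidases that shorten ascaroside side chains, acox-1.4 was at 59.6 and 64.9 CPM at 20 °C and 26.03 and 46.1 after heat in N2, 63.7 and 70.01 at 20 °C and 36.3 and 33.6 after heat in the pqm-1 mutant and 54.3 and 58.9 at 20 °C and 13.4 and 24.3 after heat in the daf-16 mutant. The heated daf-16 libraries were the lowest, and the 2 heated N2 libraries were far apart. Its log2 fold changes were -0.78 ± 0.24 in N2, -0.94 ± 0.25 in the pqm-1 mutant and -1.57 ± 0.26 in the daf-16 mutant (adjusted p = 0.0261, 0.0149 and 0.000652). The fall of acox-1.4 in N2 was -0.42 (adjusted p = 0.195) without the heated N2 replicate 2. The gene acox-1.3 went from 19.6 and 19.3 to 7.13 and 10.96 CPM in N2 and changed by -1.09 ± 0.20 in N2, -1.21 ± 0.21 in the pqm-1 mutant and -1.43 ± 0.22 in the daf-16 mutant on the log2 scale. The most abundant oxidase, acox-1.1, was at 85.5 and 85.4 CPM at 20 °C and 67.6 and 90.4 after heat in N2, 94.2 and 88.7 at 20 °C and 70.1 and 62.2 after heat in the pqm-1 mutant and 100.1 and 99.7 at 20 °C and 53.6 and 81.01 after heat in the daf-16 mutant. It was called in the daf-16 mutant, at -0.57 ± 0.17 (adjusted p = 0.0207), with values in N2 and the pqm-1 mutant of -0.11 ± 0.17 and -0.47 ± 0.17. Without the heated daf-16 replicate 2 its value was -0.30 (adjusted p = 0.154), and the call was also lost without either daf-16 library at 20 °C.

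The level of acox-1.2 was 31.9 and 60.5 CPM in the heated N2 libraries and 31.2 and 73.1 CPM in the heated daf-16 libraries, pairs about 2-fold apart, and it was called in no strain. The gene acox-1.5 rose in the pqm-1 mutant from 63.3 and 63.9 to 96.02 and 85.7 CPM, by 0.51 ± 0.14 on the log2 scale (adjusted p = 0.0152), and its other changes were 0.03 ± 0.14 in N2 and -0.26 ± 0.14 in the daf-16 mutant. The genes acox-1.1 to acox-1.4 lie next to each other in the WBcel235 annotation. Of these 4 neighbours, acox-1.3 and acox-1.4 fell in every strain. Estimated counts of acox-1.2, acox-1.3 and acox-1.4 were not whole in 10, 9 and 8 of the 12 libraries, so the division of reads among these related genes is uncertain.

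In the enoyl-CoA hydratase family, 1 gene rose in each strain, and 3 fell in N2, 5 in the pqm-1 mutant and 6 in the daf-16 mutant. The falls were 37.5%, 62.5% and 75.0% of the family, where 17.9%, 12.6% and 16.5% of all tested genes were called lower. The rise was 12.5% in each strain, where 16.8%, 12.5% and 16.5% of all tested genes were called higher. The one that rose was ech-3, from 10.97 and 10.9 to 17.7 and 17.7 CPM in N2, with log2 fold changes of 0.69 ± 0.10 in N2, 0.68 ± 0.10 in the pqm-1 mutant and 0.62 ± 0.10 in the daf-16 mutant. The abundant ech-7 was at 127 and 121 CPM at 20 °C and 65.2 and 83.5 after heat in N2, 126 and 112 at 20 °C and 72.4 and 74.95 after heat in the pqm-1 mutant and 103 and 115 at 20 °C and 64.4 and 70.6 after heat in the daf-16 mutant. Its heated libraries were all below its 20 °C libraries, and it changed by -0.74 ± 0.11 in N2, -0.69 ± 0.11 in the pqm-1 mutant and -0.69 ± 0.11 in the daf-16 mutant (adjusted p = 0.000468, 0.000847 and 0.000681). The gene ech-2 fell as well, at -0.47 ± 0.08 in N2, -0.41 ± 0.08 in the pqm-1 mutant and -0.34 ± 0.08 in the daf-16 mutant.

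Of the homologues of the mitochondrial trifunctional protein alpha subunit, which carries hydratase and dehydrogenase activities, ech-1.2 was at 370.0 and 354 CPM at 20 °C and 315 and 329 after heat in N2, 376 and 402 at 20 °C and 327 and 313 after heat in the pqm-1 mutant and 398 and 396 at 20 °C and 308 and 337 after heat in the daf-16 mutant. It changed by -0.17 ± 0.07 in N2, -0.28 ± 0.07 in the pqm-1 mutant and -0.30 ± 0.07 in the daf-16 mutant, and the values in the mutants passed the test (adjusted p = 0.0151 and 0.0085). Both calls were lost without single libraries. The value was -0.24 without replicate 3 of the pqm-1 mutant at 20 °C and -0.24 without the heated daf-16 replicate 2. The much scarcer ech-1.1 was at 2.84 to 6.95 CPM and fell in the daf-16 mutant, at -0.84 ± 0.20 (adjusted p = 0.00603). The neighbouring genes ech-8 and ech-9 were low. Levels of ech-8 were 5.59 to 8.77 CPM with no call. The counts of ech-9 were 30 and 26 at 20 °C and 19 and 28 after heat in N2, 24 and 36 and then 15 and 7 in the pqm-1 mutant, and 50 and 43 and then 16 and 28 in the daf-16 mutant. It fell in the mutants, at -1.48 ± 0.37 and -1.03 ± 0.30 (adjusted p = 0.0108 and 0.0201). Both calls were lost without single libraries. The value was -1.135 without the heated pqm-1 replicate 3 and -0.81 without the heated daf-16 replicate 2.

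Of the 54 genes, 39 were called in at least 1 strain, or 72.2%, where 49% of all tested genes were, and 15 in none. Of the 39, 6 were called higher in N2 and in neither mutant: acs-15, acs-17, acs-20, acs-21, acox-1.6 and lipl-6. A different 6 were called lower in the daf-16 mutant and in neither other strain: acs-6, acdh-4, acdh-5, acdh-13, acox-1.1 and ech-1.1. Of these 12, the calls of acs-15, acs-17, acs-21, acox-1.6, acdh-4, acdh-5, acdh-13 and acox-1.1 were lost when single libraries were left out. The value of acox-1.6 in N2 was 0.18 without the heated N2 replicate 3 and that of acdh-5 in the daf-16 mutant was -0.25 without its 20 °C replicate 3 and -0.26 without its heated replicate 3. Such a difference in calls does not show a difference between strains, which the interaction tests address. Overlapping coding genes make the counts of 12 of the 54 uncertain, since no strand is stated for the counting; acs-1, acs-7, acs-22, acdh-2, acox-1.4 and ech-2 are among them.

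Other genes of the pathway also changed in both directions. The counts of these lists stand beside the shares of all tested genes. Those were 16.8% higher and 17.9% lower in N2, 12.5% and 12.6% in the pqm-1 mutant and 16.5% each way in the daf-16 mutant. Of 6 carnitine acyltransferase genes tested, 3 rose and 2 fell in N2, 1 rose and 2 fell in the pqm-1 mutant, and 2 rose and 2 fell in the daf-16 mutant. The carnitine palmitoyltransferase family gene cpt-5 was at 13.7 and 15.3 CPM at 20 °C and 1.42 and 2.98 after heat in N2, 12.4 and 14.8 at 20 °C and 2.48 and 2.22 after heat in the pqm-1 mutant and 16.5 and 18.97 at 20 °C and 1.59 and 1.99 after heat in the daf-16 mutant. Its heated libraries were the low ones in every strain, with log2 fold changes of -2.66 ± 0.23 in N2, -2.53 ± 0.24 in the pqm-1 mutant and -3.30 ± 0.25 in the daf-16 mutant. Its relative cpt-4 rose by 1.55 ± 0.15, 1.79 ± 0.15 and 0.77 ± 0.15. The changes of cpt-1 and cpt-2, which carry fatty acids into mitochondria, were small, at 0.26, 0.07 and 0.29 for cpt-1, not called in the pqm-1 mutant, and -0.30, -0.29 and -0.39 for cpt-2, called in all 3.

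Of 6 genes of the later steps, 3 rose and 3 fell in N2, 2 rose and 3 fell in the pqm-1 mutant, and none rose and 3 fell in the daf-16 mutant. The mitochondrial thiolase kat-1 changed by -0.65 ± 0.10 in N2, -0.67 ± 0.10 in the pqm-1 mutant and -0.52 ± 0.10 in the daf-16 mutant. The hydroxyacyl-CoA dehydrogenase gene hacd-1 was at 97.8 and 96.8 CPM at 20 °C and 27.8 and 37.8 after heat in N2, 107 and 109.6 at 20 °C and 21.3 and 23.01 after heat in the pqm-1 mutant and 86.9 and 87.4 at 20 °C and 13.8 and 17.4 after heat in the daf-16 mutant. It fell in all of them, at -1.56 ± 0.13 in N2, -2.29 ± 0.13 in the pqm-1 mutant and -2.48 ± 0.14 in the daf-16 mutant. The 3 peroxisomal enzymes of ascaroside shortening, the hydratase maoc-1, the dehydrogenase dhs-28 and the thiolase daf-22, rose in N2 by 0.31 ± 0.09, 0.35 ± 0.08 and 0.58 ± 0.11. In the daf-16 mutant their changes of 0.12 ± 0.09, 0.07 ± 0.08 and 0.25 ± 0.11 did not pass. In the pqm-1 mutant maoc-1 went from 45.9 and 48.03 to 57.9 and 60.02 CPM and daf-22 from 116 and 112 to 160 and 145. The dhs-28 libraries there overlapped, at 223 and 205 and then 242 and 215. Of the 6 genes, 0 were called in the daf-16 interaction, so these calls do not show a difference between strains.

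Of 8 genes of propionate metabolism, none rose, and 3, 3 and 2 fell in N2, the pqm-1 and the daf-16 mutant. The propionate shunt enzymes hphd-1 and hach-1 fell in every strain, at -0.83 ± 0.14 and -0.71 ± 0.12 in N2. Of 15 genes of fatty acid binding and droplet lipolysis, 2 rose and 6 fell in N2, 2 rose and 4 fell in the pqm-1 mutant and 2 rose and 5 fell in the daf-16 mutant. The lipid droplet perilipin plin-1 rose by 0.36 ± 0.12, 0.65 ± 0.12 and 0.91 ± 0.12, while the triglyceride lipase atgl-1 was called in no strain, at -0.20, -0.21 and -0.04.

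Of 13 regulators, 3 rose and 3 fell in N2, and 2 rose and 2 fell in each mutant. These were 23.1% each way in N2 and 15.4% each way in each mutant. All tested genes had 16.8% higher and 17.9% lower in N2 and 12.5% and 12.6% in the pqm-1 mutant. They had 16.5% each way in the daf-16 mutant, so the mutant counts were near the shares of all genes. The lysosome and lipase activator hlh-30 rose by 0.49 ± 0.10, 0.32 ± 0.10 and 0.53 ± 0.10, and mxl-3, a repressor of lipl-1 and lipl-3, fell, at -0.59 ± 0.11, -0.89 ± 0.11 and -0.77 ± 0.11. The gene hlh-11, a repressor of lipid catabolism, rose by 0.49 ± 0.08, 0.40 ± 0.08 and 0.55 ± 0.08. The transcript of nhr-49 was not called, at 0.10, -0.01 and 0.08.

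The comparison of the mutants with N2 asks whether the mutations change these genes at either temperature. Without heat, 2 of the 54 genes were higher in the daf-16 mutant, where 2.49% of all tested genes were called and 1.68% were called higher. They were acs-22, at 59.3 and 62.6 CPM in N2 and 81.8 and 82.8 CPM in the daf-16 mutant, and acs-3, at 9.87 and 8.60 and 12.9 and 13.2 CPM. The groups did not overlap for either gene. The log2 differences were 0.43 ± 0.08 for acs-22 (95% interval 0.25 to 0.62, adjusted p = 0.0257) and 0.50 ± 0.12 for acs-3 (95% interval 0.24 to 0.76, adjusted p = 0.0482). Both calls rested on single libraries. They were lost without replicate 2 or replicate 3 of N2 at 20 °C and without either daf-16 library at 20 °C. The calls over all tested genes fell in those fits too. The call of acs-3 was also lost without any single pqm-1 library, which is outside the comparison. With only the groups compared neither gene was called, where 189 of 13557 genes were, beside 355 of 14278 in the main fit.

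Next in order of adjusted p was lipl-6, higher by 0.97 ± 0.23 on the log2 scale in the daf-16 mutant at 20 °C (adjusted p = 0.0526), which did not pass. The fatty acid transport homologue acs-20 was higher by 0.43 ± 0.11 (adjusted p = 0.0673), which also missed the threshold. DESeq2 called 3 of the 54 in this comparison, acs-22, lipl-6 and acs-20, and not acs-3, where it called 520 of 14278 genes. At an unadjusted p under 0.05, 11 of the 54 were counted against 19.7% of all tested genes. The median difference of the 54 was 0.12 on the log2 scale beside 0.00 for all. Without replicate 2 or replicate 3 of N2 at 20 °C it was 0.07 or 0.19. Among the other pathway genes, cpt-4 was higher by 0.83 ± 0.15 (adjusted p = 0.0201) and the fatty acid binding gene lbp-1 lower, at -0.49 ± 0.10 (adjusted p = 0.0345). Of the markers, the hypodermis gene dpy-7 was called higher and the eggshell gene perm-4 lower, at 0.90 and -0.51. The 4 hypodermis markers were split, 2 above 0 and 2 below, with a median of -0.05. All 8 oocyte and eggshell markers were below 0, with a median of -0.53 and an unadjusted p under 0.05 for each, and all 8 intestine markers were above 0, with a median of 0.16. The part of these markers in the result was not tested.

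After heat, none of the 54 was called between the daf-16 mutant and N2 by the edgeR test, where 1.09% of all tested genes were. The differences depended on single libraries. Without the heated daf-16 replicate 3, those of acs-7, acox-3 and acox-1.4 were -0.94, -0.65 and -1.45. These values rest on replicate 2, the lower library for each, at 22.8 against 33.9, 64.6 against 88.7 and 13.4 against 24.3 CPM. Without the heated N2 replicate 2, those of acox-1.4 and acs-14 were -1.29 and -0.48. The N2 library kept there was the higher one for both genes. The median of the 54 was -0.20 without the heated N2 replicate 2 and -0.02 without its replicate 3. It was -0.06 without the heated daf-16 replicate 2 and -0.10 without its replicate 3. At an unadjusted p under 0.05 the count was 14 against 16.9% of all, and DESeq2 called 2, acs-7 and acs-22, both lower, among 226 of 14278 genes. The differences were -0.61 ± 0.14 for acs-7 (adjusted p = 0.067 with edgeR) and -0.36 ± 0.08 for acs-22 (adjusted p = 0.0698). Among the 50 genes with a mean of at least 1 CPM, the widest was that of acox-1.4, at -0.93 ± 0.26 (adjusted p = 0.108). The scarce lipl-2 was at -0.98 ± 0.63 (adjusted p = 0.47). Outside the 54 genes, hacd-1 was lower after heat in the daf-16 mutant, at -1.08 ± 0.14 (adjusted p = 0.00336). The intestine marker ges-1 was lower, at -0.72 ± 0.11, the single call among the 8 intestine markers, and its part was not tested.

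Between the pqm-1 mutant and N2, none of the 54 was called at either temperature by edgeR, where 0.063% of all tested genes were called at 20 °C and 0.28% after heat. At an unadjusted p under 0.05 the counts were 7 and 6, against 9.67% and 6.46% of all, and DESeq2 called 0 and 1, among 100 and 88 of 14278 genes. The gene DESeq2 called was acs-1, at 88.3 and 111 CPM in heated N2 and 141 and 132 CPM in the heated pqm-1 mutant, a log2 difference of 0.45 ± 0.10 (95% interval 0.22 to 0.67, adjusted p = 0.133 with edgeR). At 20 °C the widest difference among the 50 genes with a mean of at least 1 CPM was that of lipl-6, at 0.75 ± 0.24 (adjusted p = 0.295). The scarce lipl-2 had 6 and 11 counts in N2 and 13 and 38 in the pqm-1 mutant at 20 °C, a fitted difference of 1.63 ± 0.49 that was not called (adjusted p = 0.268). The gene pqm-1 itself differed by -1.16 ± 0.19 at 20 °C (adjusted p = 0.0586), so a difference of that size could miss the threshold.

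**Figure D3:**
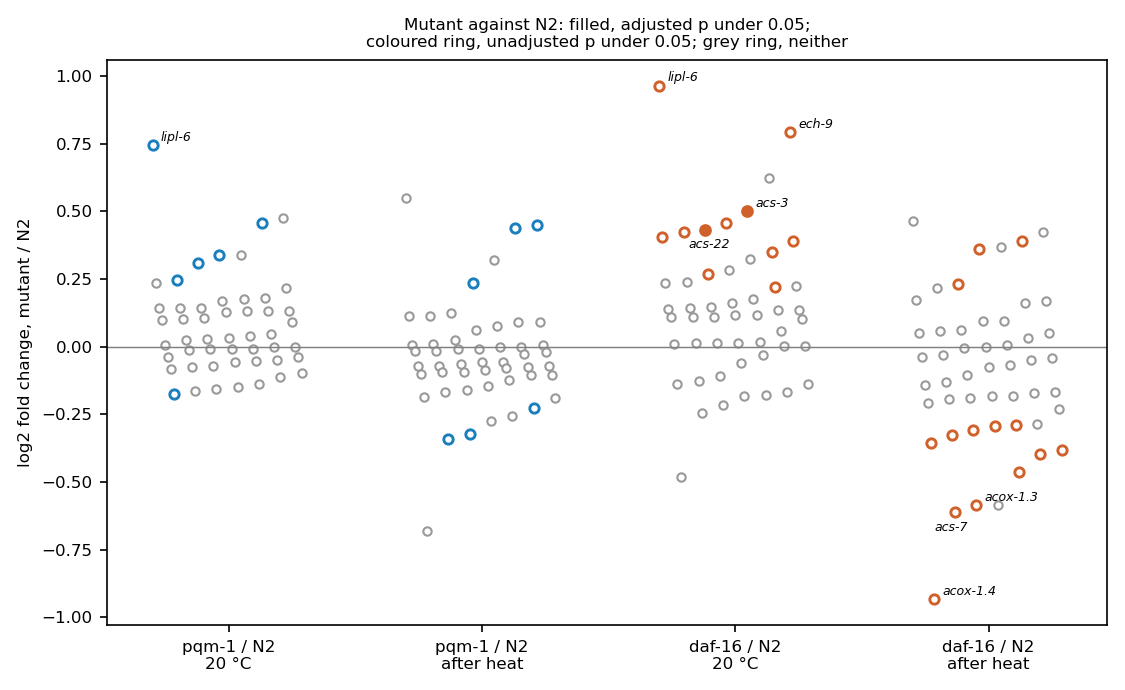
Log2 fold change of each mutant over N2 (vertical axis) at 20 °C and after heat for the 50 genes with a mean of at least 1 CPM, 1 point per gene, spread sideways for legibility. Filled points, acs-22 and acs-3 in the daf-16 mutant at 20 °C, passed an adjusted p of 0.05, coloured rings had an unadjusted p under 0.05, and the widest unadjusted differences are named.

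Whether heat acts differently in a mutant than in N2 was tested as an interaction. No gene of the 54 passed in either mutant with edgeR, nor did any of the 14278 tested genes, a background of 0%. At an unadjusted p under 0.05 the counts were 7 for pqm-1 and 12 for daf-16, against 7.79% and 14.9% of all tested genes, and DESeq2 called 0 and 2, where it called 6 and 69 of 14278 genes. Those 2 were acs-7 and acs-22. Without the heated daf-16 replicate 3 the daf-16 interaction values of acs-7, acox-3 and acs-22 were -1.22, -0.78 and -0.85. The heated daf-16 library kept in that fit was the lower one for each of these genes. Without the heated daf-16 replicate 2 that of acs-22 was -0.74. The difference of heat effects, daf-16 mutant minus N2, was -0.79 ± 0.12 for acs-22 (95% interval -1.05 to -0.53, adjusted p = 0.14 with edgeR). For acs-7 it was -0.90 ± 0.22 (95% interval -1.38 to -0.42, adjusted p = 0.211), and for acox-3 it was -0.53 ± 0.17 (adjusted p = 0.236).

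Over the 54 genes the median of this difference was -0.23, beside 0.01 for all tested genes, and 41 of the 54 were below 0, among them all 7 oxidases. For the pqm-1 mutant the median was -0.12, beside 0.00. Both interactions use the same N2 libraries. Without the heated N2 replicate 3 the medians were -0.14 and -0.02, and without the 20 °C N2 replicate 3 they were -0.33 and -0.17. The pqm-1 median was -0.07 without replicate 3 of that mutant at 20 °C.

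The summed levels of the markers also differed in how they moved. The oocyte and eggshell sum fell most in N2 and the intestine sum fell in every strain, as given with the tissue markers, and their part in the interaction values was not tested.

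**Figure D4:**
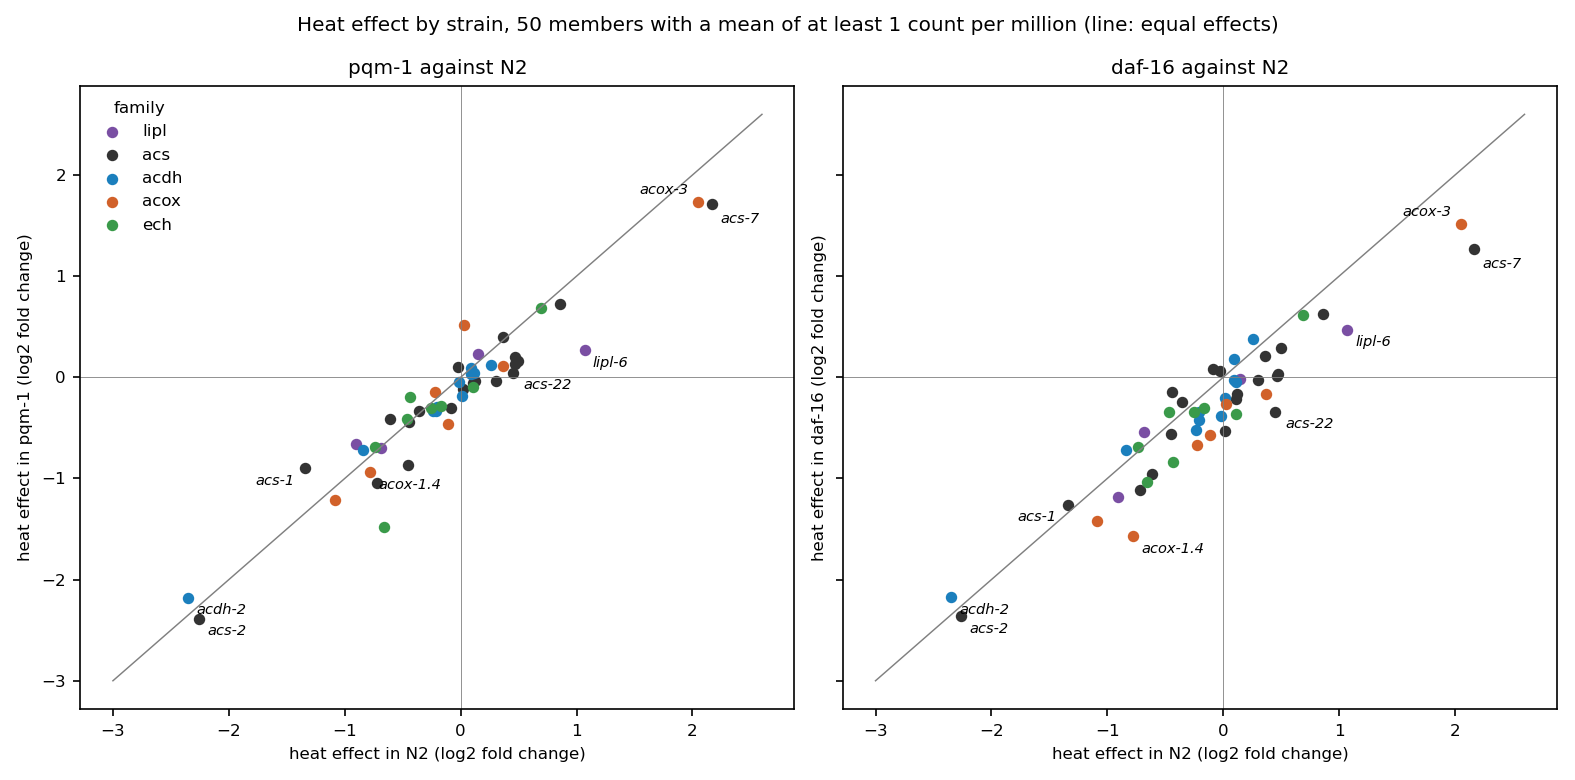
Log2 fold change after heat in N2 (horizontal axis) against the pqm-1 mutant (left) and the daf-16 mutant (right) for the 50 genes with a mean of at least 1 CPM, coloured by family, with a line of equal effects. In the daf-16 panel most points lie below the line, acs-7 and acox-3 among them, and acs-22 is above 0 in N2 and below 0 in the daf-16 mutant.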

How the data were processed

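Whole worms were sequenced in 6 groups. The authors deposited estimated counts per RefSeq transcript, of which 13.29% of the non-zero values were not whole. The counter, aligner and build are not given in the sources used here, so no coordinates or sequences are printed. Of 18 sample columns, 1 holds transcript lengths, per the values, and 17 hold counts. The 5 count columns named replicate 1 were not used, since the header may be displaced by 1 column. Of 50755 rows, 45910 matched a gene in the RefSeq annotation of WBcel235, and the 4845 others carried 23.42 to 24.26% of row totals. Lengths are coding lengths: 97.87% of the matched coding rows are multiples of 3.

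Counts were rounded and tested with the quasi-likelihood test of edgeR 4.0.16 (R 4.3.3) with TMM factors and filterByExpr, 1 coefficient per group and Benjamini-Hochberg adjustment over 14278 genes. All 54 genes passed the filter. CPM are counts scaled to the TMM-adjusted library total, and values after ± are standard errors of log2 fold changes. The genes and the lists were chosen with earlier results of these data known. Named with values were the 5 largest rises and falls among the called members of each heat comparison, members called between strains, the most abundant member of each family per kb and members with a textbook role, and the remaining named genes were picked with their values in view. DESeq2 1.42.0, other scalings, no filter, only the groups compared, the longest transcript, a replicate block, all 17 count columns and leaving out each library were the alternatives. The scripts were tested on simulated data. Figures used matplotlib 3.10.9.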

Additional observations from a re-analysis of the deposited data

Results flagged for a closer look

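For 5 of the 54 genes both heated libraries lay on one side of both 20 °C libraries in N2 and on the other side in a mutant. With 2 libraries per group this order is weak evidence, and no interaction passed the adjusted edgeR test. The share of all tested genes with such an order was not counted, so the 5 do not set these genes apart. For acs-22 the heat effect was 0.45 in N2 and -0.34 in the daf-16 mutant on the log2 scale, an interaction of -0.79 ± 0.12 (adjusted p = 0.14). For acox-1.6, an acyl-CoA oxidase, the effects were 0.37 and -0.17, an interaction of -0.53 ± 0.17 (adjusted p = 0.235), and the N2 effect was 0.18 without the heated N2 replicate 3. For ech-8 they were 0.11 and -0.37, an interaction of -0.48 ± 0.21 (adjusted p = 0.327). For acdh-11 they were 0.09 and -0.03, an interaction of -0.12 ± 0.10 (adjusted p = 0.594). The heat effect on acs-17, a synthetase, was 0.30 for N2 and -0.04 for the pqm-1 mutant, an interaction of -0.34 ± 0.12 (adjusted p = 0.597).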

How the results depend on the processing

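No call reversed its direction under any alternative run. With all 17 count columns taken by their header names, the counts were 0 for heat in N2, in the pqm-1 mutant and in the daf-16 mutant and 0 for daf-16 at 20 °C, as they were over all 14462 genes tested then. If the header is displaced, that fit mixes libraries of different groups and cannot test the calls. DESeq2 called 2 genes for daf-16 after heat, 2 for its interaction and 1 for pqm-1 after heat, and 3 for daf-16 at 20 °C, where acs-3 was not among them. Scaling by library size only gave 3 for daf-16 after heat, among 237 of 14278 genes. With no filter on low counts, the calls were 9 for daf-16 after heat, 8 for daf-16 at 20 °C, 8 for its interaction, 1 for the pqm-1 interaction, 3 for pqm-1 after heat and 3 for pqm-1 at 20 °C. Over all 20884 genes tested without the filter, the calls in that order were 1104, 1315, 792, 284, 287 and 550, where the filtered fit had 156, 355, 0, 0, 40 and 9. Fitting only the groups compared left 0 for daf-16 at 20 °C, where 189 of 13557 genes were called.

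Leaving out 1 library at a time, heat calls ranged from 20 to 27 in N2, 16 to 27 in the pqm-1 mutant and 23 to 30 in the daf-16 mutant. They ranged from 0 to 4 for daf-16 at 20 °C, with 4, adding acs-20 and lipl-6, without either heated daf-16 library. The heated libraries are outside that comparison, and the calls over all tested genes rose in those fits too. The range was 0 to 3 for daf-16 after heat and 0 to 3 for its interaction. Both highest counts came without the heated daf-16 replicate 3, where the calls over all tested genes also rose. Of the 80 heat calls, 53 passed without each of the 12 libraries in turn and 27 were lost without at least 1 library of the groups compared or another, among them acs-22, ech-2, acox-1.1, acdh-4, acdh-5 and acdh-13 in the daf-16 mutant, acs-3, acs-15, acs-17, acs-21, acox-1.4 and acox-1.6 in N2, and acox-1.4, acox-1.5, acs-4 and ech-9 in the pqm-1 mutant. A replicate block left 1 call for daf-16 at 20 °C, acs-22, among 336 of 14278 genes, and all 80 heat calls. The difference of replicate 3 minus replicate 2 correlated across genes at -0.242 to 0.216 over 15 pairs of groups, 1 of them over 0.1. No strong shared deviation was seen, but these correlations cannot show whether the samples were prepared in pairs. The causes were not tested. With 2 libraries per group, moderate differences between strains and changes of genes with few counts, such as lipl-1 to lipl-4, could be missed.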
